A study of Mus musculus with 62 samples.

Results

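The clustered protocadherins are 58 genes of the 27179 in the count tables. They were chosen by symbol, as the rows named Pcdha, Pcdhb or Pcdhg with a number, a letter and a number, or a C and a number, and kept where at least 7 libraries of a table held 10 reads. The 58 comprise 14 genes of the alpha cluster, 22 of the beta cluster and 22 of the gamma cluster. On the mm10 build the 3 clusters follow each other on chromosome 18, from 36930285 to 37188897 (alpha), from 37264998 to 37521419 (beta) and from 37661775 to 37841873 (gamma). Expression was measured by RNA-seq of polyadenylated RNA in 62 libraries, each from 1 animal. They are 15 libraries of E17.5 forebrain (late gestation, 8 euploid and 7 Ts65Dn, sexes not separated) and 47 libraries of hippocampus from 6-week-old mice. The adult males are 8 euploid, 7 Ts65Dn and 8 Ts65Dn;Brwd1+/- animals, and the adult females are 8 animals of each of these genotypes. Ts65Dn mice are trisomic for a distal segment of chromosome 16 joined to a proximal piece of chromosome 17, so that the protocadherin clusters lie outside the triplicated DNA. Ts65Dn;Brwd1+/- mice carry in addition 1 mutant allele (repro5) of Brwd1, a bromodomain gene of the triplicated chromosome 16 segment. All groups share the mixed DBA/2J x B6EiC3Sn/J background and came from Ts65Dn mothers, crossed at first to euploid B6EiC3Sn/J males and otherwise to males heterozygous for the repro5 allele. The labels did not say whether animals of a group were littermates. The titles of the E17.5 libraries carry 1 of 2 numbers, each shared by libraries of both genotypes, and their meaning is not given.

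Clustered protocadherins are single-pass membrane proteins of the cadherin superfamily that bind the identical isoform on a facing cell and give neurons a surface identity, by which branches of the same cell recognise and avoid each other. Each alpha or gamma gene contributes a variable exon with its own promoter, which is spliced to constant exons shared by its whole cluster, whereas each beta gene is read from a single exon. Most members are switched on in a random subset in each neuron by CTCF and cohesin looping to distant enhancers, while the C-type genes at the ends of the alpha and gamma clusters (Pcdhac1, Pcdhac2, Pcdhgc3, Pcdhgc4 and Pcdhgc5) are used more uniformly and in distinct roles. A bulk library averages over all of these cells, so that fewer cells using a gene and less RNA from it per cell cannot be told apart.

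The libraries held 14863136 to 62618142 assigned reads at E17.5 and 33584456 to 137059172 in the adult, of which the members took 0.0525% to 0.0663% and 0.0390% to 0.0729%. The additional gene dosage was present in every E17.5 Ts65Dn library and in 27 adult trisomic libraries, at 0.51 to 0.63 on the log2 scale for the genes of the triplicated segments, but was absent in the other 4 libraries labelled trisomic, at -0.01 to 0.04 (male Ts65Dn B145, male Ts65Dn;Brwd1+/- B138 and T35, female Ts65Dn;Brwd1+/- B136). In 2 further libraries, labelled male Ts65Dn B88 and female euploid B85, the sex-linked genes Xist and Ddx3y went against the label. Brwd1 was higher by 0.56 ± 0.05 (SE) in E17.5 Ts65Dn, by 0.53 ± 0.09 in adult male Ts65Dn and by 0.46 ± 0.11 in adult female Ts65Dn than in euploid animals. In Ts65Dn;Brwd1+/- it stood at 0.28 ± 0.09 in males (adjusted p = 0.23) and 0.21 ± 0.11 in females (adjusted p = 0.45) against euploid, and at -0.25 ± 0.09 (adjusted p = 0.63) and -0.25 ± 0.11 (adjusted p = 0.9999) against Ts65Dn, none of which passed the threshold. Female euploid B125 and female Ts65Dn;Brwd1+/- B176 stood apart in the members themselves. In them 43 and 44 of 57 members were the lowest of their group, against 0 to 26 in each of the other 45 adult libraries. Transcripts of at least 6000 bases were low relative to those under 2000 bases in the same libraries, by 0.93 and 0.91 on the log2 scale, where the others ranged from -0.22 to 0.21. The part of these differences in the results was not tested beyond leaving the libraries out.

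The level of a member was computed as CPM, the count scaled to a common library size, after scaling by the trimmed mean of M values (TMM), on a log2 scale or per kilobase of the exon sequence that the gene shares with no other. How reads of the shared constant exons were counted is not given in the sources used here. Gm37013, a gene model that overlaps the clusters, held 0 reads in all libraries. Pcdha4 held 0 to 22 reads in the adult and 0 to 7 at E17.5 and was left untested, and Pcdhb1, with 0 to 11 reads per E17.5 library, was not tested between the E17.5 genotypes. In all, 56 members were tested at E17.5 and 57 in the adult and between the stages.

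Per kilobase, 3 of the 5 C-type genes held the first 3 places at each stage, and the other C-type genes were lower. In euploid E17.5 forebrain the order was Pcdhgc3 with 40.7 ± 5.56 CPM per kb (SD, n = 8), Pcdhgc4 with 15.4 ± 3.73, Pcdhac2 with 5.76 ± 0.778 and Pcdhga11 with 5.67 ± 0.908. Pcdhgc3 and Pcdhgc4 were each separated from the next gene by more than their spread, whereas Pcdhac2 and Pcdhga11 were not. The other C-type genes, Pcdhgc5 and Pcdhac1, had 1.88 ± 0.464 and 0.757 ± 0.0904. In euploid adult hippocampus the order was Pcdhgc5 with 50.7 ± 7.67 CPM per kb (SD, n = 16), Pcdhgc3 with 36.2 ± 4.48, Pcdhac2 with 13.1 ± 2.49 and Pcdhga11 with 8.62 ± 1.69. Pcdhgc4 and Pcdhac1 had 5.16 ± 0.952 and 1.67 ± 0.410. By the exon lengths used, the highest beta gene was Pcdhb7 at E17.5 (4.29 ± 0.494) and Pcdhb9 in the adult (4.96 ± 0.533), and both were under the highest gamma genes. The order of the beta genes depends on these lengths. Pcdhb17 (3.42 ± 0.437 at E17.5 and 3.27 ± 0.382 in the adult) was given 4660 bases, more than its mm10 span from 37485021 to 37488290. The lengths used for further beta genes exceeded their spans as well, among them Pcdhb8, Pcdhb11, Pcdhb14, Pcdhb19, Pcdhb20, Pcdhb21 and Pcdhb22. At the other end of the range were Pcdhb1 (0.0248 ± 0.0218 at E17.5 and 0.118 ± 0.0626 in the adult), Pcdha4 (0.0364 ± 0.0176 and 0.0428 ± 0.0173), Pcdha8 (0.121 ± 0.0628 and 0.167 ± 0.0981) and Pcdhgb8, the lowest gamma gene (0.377 ± 0.162 and 0.521 ± 0.176).

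The shares that single genes held of their cluster differed between the stages in all 3 clusters, by the most percentage points for Pcdhgc5 and Pcdhac2. The summed level of the alpha cluster was 71.9 ± 8.51 CPM in E17.5 euploid libraries and 80.4 ± 13.6 CPM in adult euploid libraries. The beta sums were 134.7 ± 11.7 and 149 ± 15.5 CPM, and the gamma sums were 304 ± 33.8 and 443 ± 51.4 CPM. The gamma sums ranged from 257 to 341 CPM at E17.5, from 399 to 496 CPM in adult males and from 278 to 488 CPM in adult females, where B125 is the lowest. Without B125, left out after seeing the data, the adult means were 83.2 ± 8.10 (alpha), 151 ± 14.8 (beta) and 454 ± 27.3 CPM (gamma; n = 15). Within the alpha cluster the C-type genes held 26.99% ± 1.97 of the reads at E17.5 and 54.3% ± 2.16 in the adult, a range of 24.98% to 30.6% against 50.0% to 57.5%, and most of this was Pcdhac2, with 24.3% ± 1.80 and 49.0% ± 1.98. Without B125 the adult C-type share was 54.6% ± 1.89. Within the gamma cluster the C-type share was similar at the stages, 50.6% ± 1.52 and 54.3% ± 1.94, but its makeup was not. Pcdhgc5 went from 1.61% ± 0.289 of the cluster to 29.9% ± 1.81, Pcdhgc3 from 34.3% ± 2.48 to 20.99% ± 1.34 and Pcdhgc4 from 14.6% ± 2.91 to 3.39% ± 0.561. Within the beta cluster, which has no C-type gene, Pcdhb7 went from 11.1% ± 0.989 to 6.93% ± 0.545 and Pcdhb20 from 10.6% ± 0.658 to 7.001% ± 0.843. Pcdhb9 went from 6.43% ± 1.02 to 10.2% ± 1.30 and Pcdhb14 from 3.22% ± 0.251 to 5.84% ± 0.685.

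**Figure D1:**
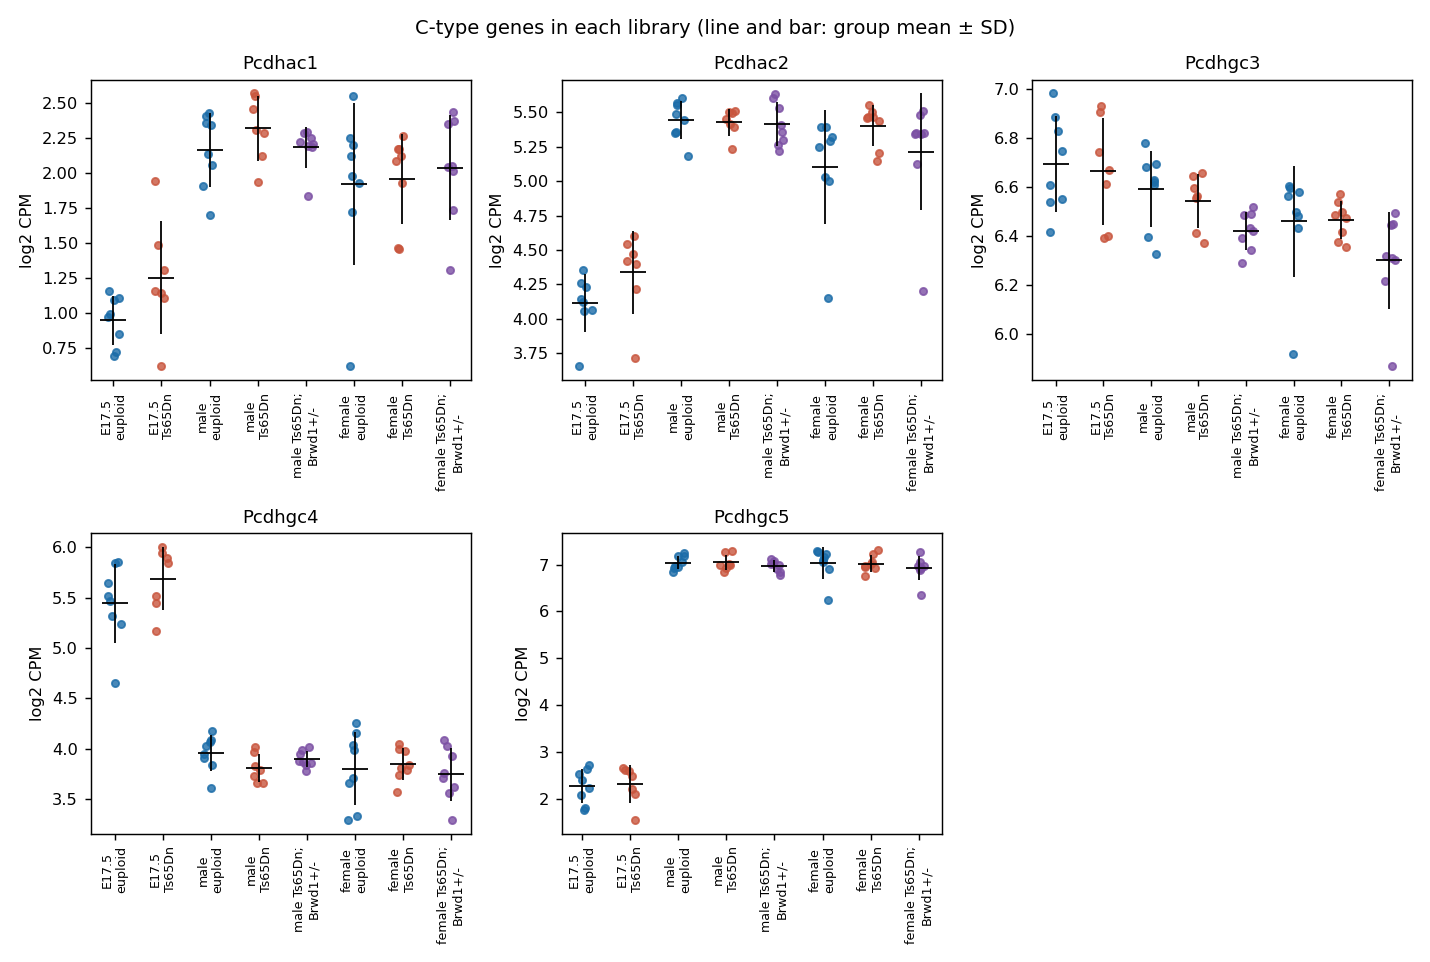
Level of the 5 C-type genes (log2 CPM, vertical axis, a separate scale for each gene) in each of the 62 libraries by group; points are libraries (blue euploid, red Ts65Dn, purple Ts65Dn;Brwd1+/-), the line and bar are the group mean ± SD. Pcdhgc5 lies between 1.54 and 2.72 in the E17.5 libraries and between 6.24 and 7.31 in the adult ones, while Pcdhgc4 lies lower in the adult; the low female euploid and low female Ts65Dn;Brwd1+/- points of Pcdhac2 and Pcdhgc5 are B125 and B176.

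Adult hippocampus was compared with E17.5 forebrain in euploid animals, which asks how usage of the clusters differs with age. Age, brain region and the separate sequencing of the 2 tables cannot be told apart in this comparison. With edgeR's quasi-likelihood test, an adjusted p (Benjamini-Hochberg over all 17234 genes tested) under 0.1 and an absolute log2 fold change of at least 1, 7 of 57 members were higher in the adult, where 20.9% of all genes tested were, and 2 were lower, where 17.6% of all genes were. The share of members with such a change was thus below that of all genes. Without the fold minimum, 29 of 57 were higher (41.7% of all genes) and 15 were lower (42.9% of all genes), and the median log2 fold change of the members was 0.27 against -0.02 for all genes.

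Of the 5 C-type genes, 3 were higher and 1 was lower in the adult past both thresholds. Pcdhgc5, known from GABAergic synapses, had log2 CPM of 1.75, 2.31 and 2.72 (lowest, median and highest) at E17.5 and of 6.24, 7.08 and 7.28 in the adult. Its groups did not overlap, and the log2 fold change was 4.72 ± 0.15 (SE; adjusted p = 3.99e-20), the largest of any member. Pcdhgc4, required for the survival of cortical interneurons, had 4.66, 5.49 and 5.86 at E17.5 and 3.29, 3.97 and 4.26 in the adult. Every adult library was below every E17.5 library, with a log2 fold change of -1.59 ± 0.12 (adjusted p = 7.1e-12). Pcdhac2, which serotonergic axons need to spread evenly over their target, had 3.66, 4.13 and 4.36 at E17.5 and 4.15, 5.35 and 5.61 in the adult, and the groups overlapped only through B125. Its log2 fold change was 1.16 ± 0.11 (adjusted p = 7.0e-10). Pcdhac1 rose as well, by 1.13 ± 0.16 (adjusted p = 5.77e-07), from 0.70, 0.99 and 1.16 to 0.63, 2.13 and 2.55, with B125, below the E17.5 range, as the single adult library that was not above it. Pcdhgc3, a binder of the Wnt scaffold Axin1, had 6.42, 6.68 and 6.98 at E17.5 and 5.92, 6.59 and 6.78 in the adult, with strong overlap and a log2 fold change of -0.18 ± 0.08 (adjusted p = 0.035), under the fold minimum. Without female euploid B85 and B125 the log2 fold changes were 4.76 ± 0.11 for Pcdhgc5, 1.22 ± 0.08 for Pcdhac2 and 1.19 ± 0.12 for Pcdhac1.

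Of 11 alpha genes tested other than the C-type ones, 7 were lower in the adult and 0 were higher at an adjusted p under 0.1, with a median log2 fold change of -0.55. Of the 19 gamma genes other than the C-type ones, 15 were higher and 0 were lower, with a median of 0.42. Of the 22 beta genes, 11 were higher and 6 were lower, with a median of 0.20. By the same threshold 41.7% of all genes were higher and 42.9% were lower. DESeq2 gave 7 lower alpha genes and 15 higher gamma genes as well, with 1 alpha gene higher and 0 gamma genes lower. Under upper-quartile scaling, which moved the median of all genes to -0.09, the counts were 7 alpha genes lower and 0 higher, and 13 gamma genes higher and 0 lower. In all, 8 of the 11 alpha genes had a log2 fold change below 0 and 18 of the 19 gamma genes had one above 0. Pcdha1, with 0.39 ± 0.22 (adjusted p = 0.11), was among the alpha genes above 0, and Pcdhgb7, with -0.05, was the gamma gene below it. The 3 clusters were not tested against each other.

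**Figure D2:**
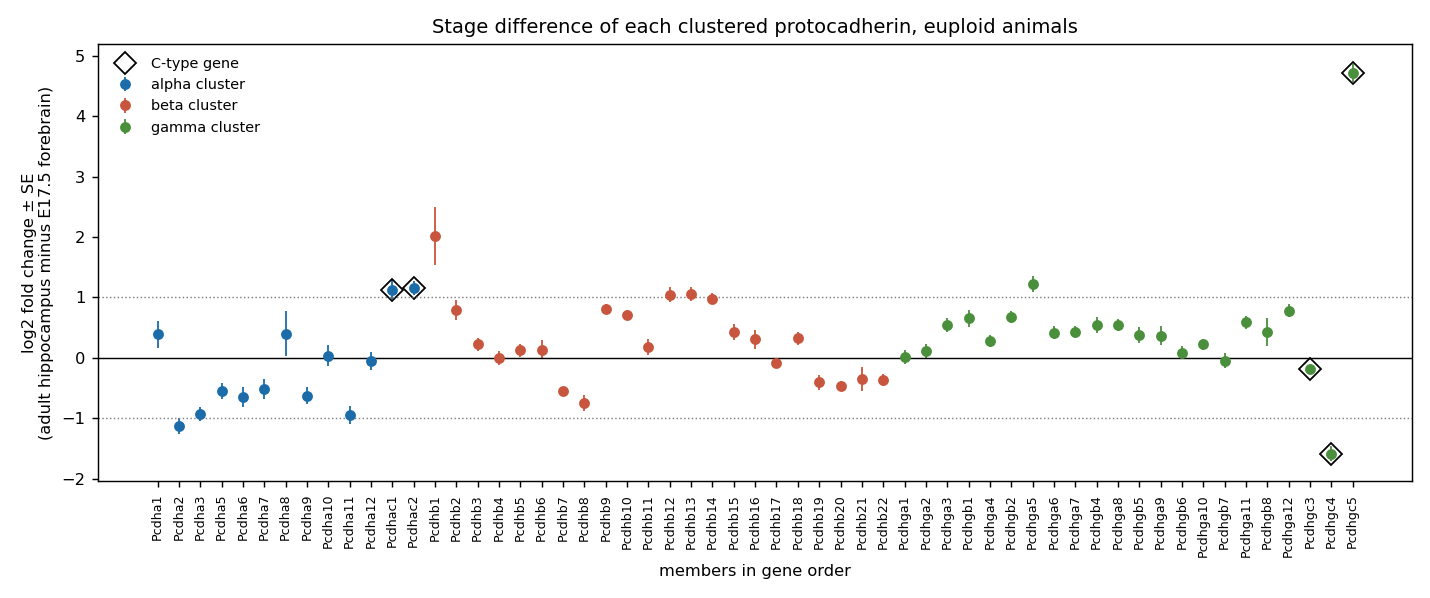
Log2 fold change (adult hippocampus minus E17.5 forebrain, euploid libraries, vertical axis) of the 57 members tested, in gene order along the 3 clusters; points are edgeR estimates, bars are standard errors, diamonds mark C-type genes and dotted lines mark a log2 fold change of 1 and -1. Alpha genes lie mostly below 0 (median -0.55 without the C-type genes), gamma genes mostly above (median 0.42), and Pcdhgc5 stands at 4.72.

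Among the alpha genes, Pcdha2 had the largest fall, with 2.08, 2.75 and 2.95 at E17.5 and 0.69, 1.52 and 1.97 in the adult. The groups did not overlap, and the log2 fold change was -1.13 ± 0.13 (adjusted p = 1.24e-08). Pcdha11 (-0.94 ± 0.15), Pcdha3 (-0.93 ± 0.11) and Pcdha6 (-0.65 ± 0.16) were lower too, with adjusted p of 2.95e-06, 4.01e-08 and 0.00082. Pcdha12, the highest alpha gene in the adult after Pcdhac2, had a log2 fold change of -0.05 ± 0.15 (adjusted p = 0.77), and Pcdha10 of 0.04 ± 0.18 (adjusted p = 0.86).

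In the beta cluster several rises lay in the stretch from Pcdhb9 to Pcdhb14, which was picked out after the values had been seen. Pcdhb11 within it had a log2 fold change of 0.18 ± 0.14 (adjusted p = 0.22). Outside it, Pcdhb2 went from 0.678 ± 0.111 to 1.18 ± 0.297 CPM per kb, with overlapping ranges. Pcdhb12 rose by 1.04 ± 0.12 (adjusted p = 1.92e-08) and Pcdhb13 by 1.06 ± 0.11 (adjusted p = 1.9e-09). Pcdhb13 had a median of 1.82 and a highest value of 2.11 at E17.5 and 2.38, 2.87 and 3.21 in the adult, without overlap, and Pcdhb12 had 1.41, 1.89 and 2.08 against 2.37, 2.83 and 3.32, likewise without overlap. In the same stretch, Pcdhb14 (0.98 ± 0.09), Pcdhb9 (0.80 ± 0.08) and Pcdhb10 (0.71 ± 0.08) passed the p threshold but not the fold minimum, and their groups did not overlap either. Under upper-quartile scaling Pcdhb12 and Pcdhb13 fell under the fold minimum and Pcdha3 and Pcdha11 passed it, so that 5 members were higher and 4 were lower. Pcdhb1, the first gene of the cluster, had a log2 fold change of 2.02 ± 0.48 (adjusted p = 0.00041) on very few reads, 0 to 10 per E17.5 library with 3 libraries at 0, and 3 to 89 per adult library. The falls in this cluster were smaller, with Pcdhb8 at -0.75 ± 0.14 (adjusted p = 1.73e-05) and Pcdhb7 at -0.56 ± 0.07 (adjusted p = 5.96e-08).

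Of the gamma genes other than the C-type ones, Pcdhga5 changed the most, from 1.45, 1.95 and 2.14 to 2.42, 2.98 and 3.61. Its groups did not overlap, and it rose by 1.22 ± 0.13 (adjusted p = 3.78e-09). Pcdhga12 (0.78 ± 0.11), Pcdhgb2 (0.68 ± 0.10), Pcdhgb1 (0.65 ± 0.15) and Pcdhga11 (0.59 ± 0.11) followed, with adjusted p between 4.82e-07 and 0.00025. Relative to the gamma sum, which was itself higher in the adult, Pcdhga5 was still higher by 0.69 on the log2 scale, whereas Pcdhga11 was near level at 0.05 and Pcdhga4 was at -0.26. Pcdhac2, Pcdhb1, Pcdhgc4 and Pcdhgc5, the 4 members known to lack the conserved promoter element of the family, were all among the 9 called, 3 higher and 1 lower. They were grouped after their values had been seen.

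Most of the genes known to set protocadherin promoter choice were lower in the adult. Of 22 chromatin and looping factors, 19 were lower and 1 was higher at an adjusted p under 0.1, where 42.9% and 41.7% of all genes were. By at least 1 on the log2 scale 4 were lower, where 17.6% of all genes were. These were Dnmt3b, the DNA methyltransferase that sets methylation of the variable promoters (-1.90 ± 0.17), Dnmt1 (-1.35 ± 0.05), the loop regulator Wiz (-1.05 ± 0.04) and Dnmt3a (-1.03 ± 0.11). Ctcf fell by 0.58 ± 0.06 and the cohesin subunit Rad21 by 0.59 ± 0.04, and Smchd1, a silencer of the alpha and beta promoters, by 0.79 ± 0.07. Over all genes tested the median log2 fold change was -0.02, and over this list it was -0.61. Of 24 binding partners and effectors, 7 passed both thresholds as higher and 3 as lower, where 20.9% and 17.6% of all genes did. They were led by Ptk2b, the kinase Pyk2 that the alpha and gamma constant domains inhibit (6.50 ± 0.16), and Marcks, a regulator of dendrite arbors downstream of the gamma proteins (-2.20 ± 0.07). Of 12 delta protocadherins, the dispersed relatives of the family, 3 were higher past both thresholds (Pcdh20, Pcdh1 and Pcdh9, by 3.64, 2.49 and 1.09) and 3 were lower (Pcdh18, Pcdh12 and Pcdh11x, by 2.89, 2.74 and 1.74). Cell type markers moved in the same comparison. All 7 neural progenitor markers were lower (median -2.93), and 6 of 7 astrocyte (median 2.88), 7 of 8 oligodendrocyte (4.85), 7 of 7 microglia (2.60) and 6 of 9 neuron markers (1.21) were higher at an adjusted p under 0.1, as were 6 of 6 markers of hippocampal subfields, 4 of 9 of choroid plexus and 2 of 5 of endothelium. The endothelial markers Cldn5 (-0.66) and Cdh5 (-0.58) were lower by the same threshold. Of all genes tested, 41.7% were higher and 42.9% were lower by it. Their part in the protocadherin differences was not tested. Of 24 genes that neighbour the clusters, 10 were higher and 11 were lower.

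At E17.5, Ts65Dn was compared with euploid forebrain to ask whether the additional dosage alters the clusters. None of the 56 members tested was called (0 with edgeR at an adjusted p under 0.1, where 1.35% of all genes were called), 6 had an unadjusted p under 0.05, and DESeq2 called 1. The members' median log2 fold change was -0.06, against -0.01 for all genes, with 36 of 56 below 0, where 8803 of all 16395 genes were. In the beta cluster 18 of 21 were below 0, with a median of -0.10, in the gamma cluster 13 of 22 and in the alpha cluster 5 of 13. Under upper-quartile scaling, which moved the median of all genes to 0.01, 16 of the 21 beta genes were below 0. Cell type markers differed in the same comparison. All 9 choroid plexus markers were above 0, from 0.41 to 1.31, with 0 called. The summed astrocyte markers had log2 CPM of 8.83, 9.09 and 9.65 in euploid and 9.25, 9.41 and 9.58 in Ts65Dn libraries, with 6 of 7 genes above 0 and Gja1 called (0.59 ± 0.13, adjusted p = 0.033). Of 5 endothelial markers 4 were above 0 and Cdh5 was called (0.48 ± 0.09, adjusted p = 0.017). Their part in the members' values was not tested. The gene that DESeq2 called, Pcdhgb1, had 1.84, 2.24 and 2.94 in euploid and 1.65, 1.85 and 2.17 in Ts65Dn libraries. The groups overlapped, and in the edgeR fit its log2 fold change was -0.48 ± 0.15 (adjusted p = 0.17), with values of -0.58 to -0.36 over the alternatives. The smallest p in the beta cluster belonged to Pcdhb16 (-0.31 ± 0.13, adjusted p = 0.37). The C-type genes ranged from -0.04 to 0.32, none with an adjusted p under 0.45. The study used factors of unwanted variation estimated from residuals (RUVr) and named no number of factors. With 1 factor 2 members were called at E17.5, where 9.16% of all genes were, and with 3 factors 8 were, where 22.1% of all genes were. With the number in the titles as a block, 0 members were called (1.24% of all genes) and 7 had an unadjusted p under 0.05.

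In adult males, Ts65Dn was compared with euploid hippocampus, and Ts65Dn;Brwd1+/- with both, to ask what the additional dosage does and how values with 1 mutant Brwd1 allele compare. The comparisons within a sex share their libraries, and their values are given side by side. With edgeR 0 of 57 members were called in Ts65Dn against euploid (0.795% of all genes were), 0 in Ts65Dn;Brwd1+/- against Ts65Dn (0% of all genes) and 0 in Ts65Dn;Brwd1+/- against euploid (0.576% of all genes). At an unadjusted p under 0.05 there were 8, 5 and 8 members, and DESeq2 called 0 in each. The median log2 fold changes of the members were -0.10, -0.08 and -0.14, against medians between -0.0054 and 0.0020 for all genes. In Ts65Dn;Brwd1+/- against euploid 51 of 57 members were below 0, while 8641 of all 16851 genes were, and over the alternatives 49 to 52 were. The summed level of all members was 683 ± 44.0 CPM in euploid (n = 8), 660 ± 56.2 CPM in Ts65Dn (n = 7) and 624 ± 40.7 CPM in Ts65Dn;Brwd1+/- males (n = 8). Their ranges were 610 to 750, 619 to 779 and 567 to 684 CPM, and overlapped throughout. Cell type markers and transcript length moved in Ts65Dn;Brwd1+/- against euploid as well. All 7 astrocyte markers were below 0 (median -0.12, Slc1a2 called) and all 5 endothelial markers were too (median -0.31, Flt1 called), and all 8 oligodendrocyte markers were above 0 (median 0.24, 0 called). Of the hippocampal subfield markers, Wfs1, Dsp, Prox1, Zbtb20 and Grik4 stood at -0.53, -0.53, -0.35, -0.22 and -0.03, and Fibcd1 at 0.05 (0 called). The summed astrocyte level was 12.31, 12.54 and 12.58 in euploid and 12.27, 12.34 and 12.40 in Ts65Dn;Brwd1+/- males, and the endothelial level 7.09, 7.32 and 7.49 against 6.81, 7.04 and 7.27. The level of long relative to short transcripts was -0.13, 0.05 and 0.18 in euploid and -0.12, -0.04 and 0.06 in Ts65Dn;Brwd1+/- males. All these ranges overlapped, and their part in the members' values was not tested.

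Among the male values, Pcdhgc3 came nearest to the threshold. It had 6.33, 6.62 and 6.78 in euploid, 6.37, 6.56 and 6.66 in Ts65Dn and 6.29, 6.43 and 6.52 in Ts65Dn;Brwd1+/- males. The groups overlapped, with a log2 fold change of -0.18 ± 0.06 for Ts65Dn;Brwd1+/- against euploid (adjusted p = 0.23), of -0.05 for Ts65Dn against euploid and of -0.13 ± 0.06 for Ts65Dn;Brwd1+/- against Ts65Dn (adjusted p = 0.65). Pcdha2 was at -0.41 ± 0.15 in Ts65Dn (adjusted p = 0.36) and at -0.37 ± 0.15 in Ts65Dn;Brwd1+/- (adjusted p = 0.37), each against euploid. Pcdhb1 had the widest value, -1.56 ± 0.66 in Ts65Dn against euploid (adjusted p = 0.48), on 1 to 12 reads in Ts65Dn and 3 to 29 in euploid libraries. Without the 4 libraries that lacked the additional dosage, 2 members were called in Ts65Dn against euploid (Pcdhb2 and Pcdhb3, both lower, where 1.16% of all genes were called) and 4 in Ts65Dn;Brwd1+/- against euploid (Pcdhb2, Pcdhb3, Pcdhga2 and Pcdhga3, all lower, where 1.58% of all genes were called). With 3 factors of unwanted variation, the 3 male counts were 1, 0 and 3, where 4.63%, 3.47% and 4.97% of all genes were called.

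**Figure D3:**
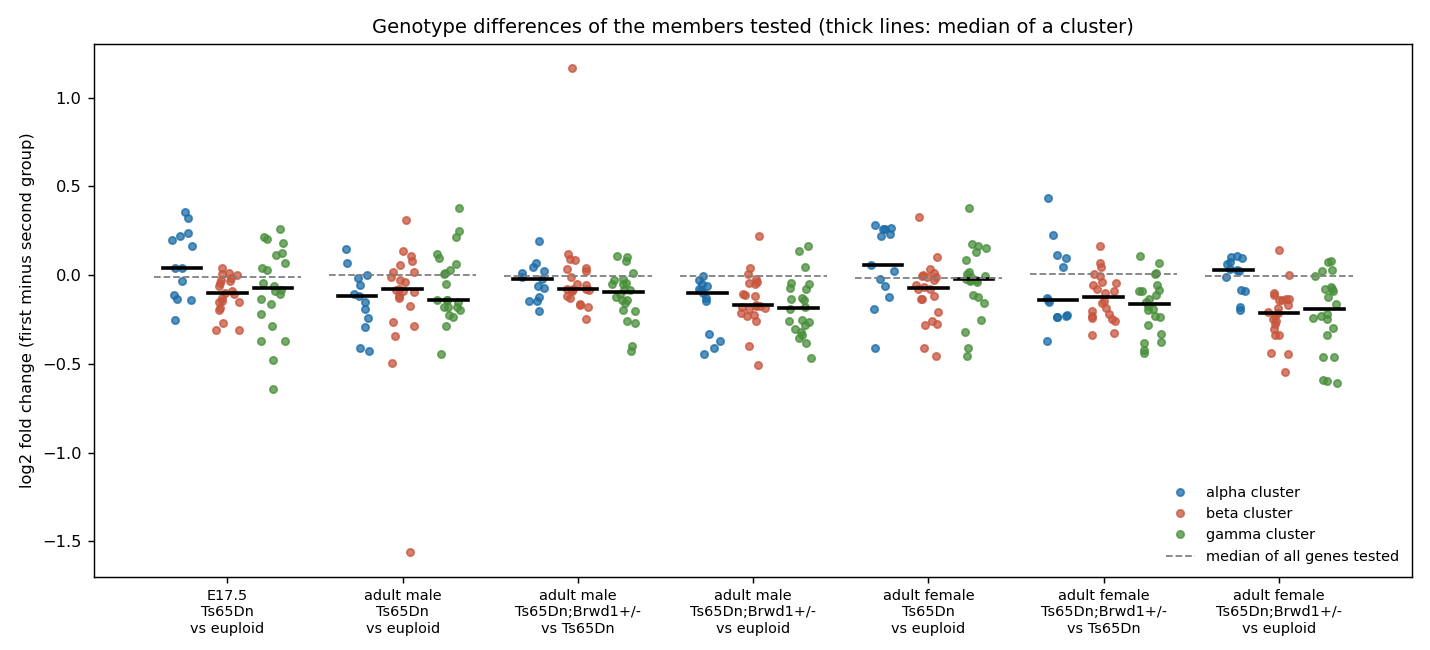
Log2 fold change (first minus second group, vertical axis) of each member tested in the 7 genotype comparisons, with points coloured by cluster, thick lines at the median of a cluster and dashed lines at the median of all genes tested. The median over all members, which is not drawn, lies between -0.15 and -0.03, below the dashed line in each comparison. Single clusters can differ from it, and most alpha genes lie above 0 at E17.5 and in female Ts65Dn;Brwd1+/- against euploid. The point at -1.56 is Pcdhb1, which had few reads.

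In adult females the same 3 comparisons called 1, 0 and 1 members. Pcdhga4 was called in Ts65Dn against euploid, where 3.17% of all genes were called. It had 3.07, 3.59 and 3.89 in euploid, 3.77, 3.90 and 4.26 in Ts65Dn and 3.05, 3.64 and 3.77 in Ts65Dn;Brwd1+/- females. The Ts65Dn libraries were the highest, with 1 euploid library (3.89) and 1 Ts65Dn;Brwd1+/- library (3.77) inside their range. The log2 fold change was 0.37 ± 0.11 against euploid (adjusted p = 0.082) and -0.38 ± 0.11 for Ts65Dn;Brwd1+/- against Ts65Dn (adjusted p = 0.90), which use the same Ts65Dn libraries. The call was kept in 9 of the 16 fits that each left out 1 of the libraries compared and was lost in 7, those without Ts65Dn T142, B134 or B103 or without euploid B65, B12, B184 or B17, with adjusted p between 0.055 and 0.18. In males Pcdhga4 did not show this order, with 3.40, 3.80 and 4.11 in euploid and 3.36, 3.69 and 3.84 in Ts65Dn.

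Pcdhga11 was called in female Ts65Dn;Brwd1+/- against euploid, where 0.729% of all genes were called. It had 4.05, 4.68 and 4.88 in euploid, 4.07, 4.26 and 4.53 in Ts65Dn and 3.31, 3.88 and 4.53 in Ts65Dn;Brwd1+/- females, and the ranges overlapped. The lowest Ts65Dn;Brwd1+/- libraries were B176 (3.31), B113 (3.43) and B167 (3.78), which were also low in Pcdhga5, as described below. The log2 fold change was -0.60 ± 0.15 (adjusted p = 0.086) against euploid, and in Ts65Dn against euploid it was -0.32 ± 0.15 (adjusted p = 0.30). The call was kept in 4 of the 16 fits that left out 1 library (without B181, B133, B136 or B125) and lost in the other 12, with adjusted p between 0.022 and 0.20. Among the 12 were the fits without B176, B113 or B167. Both female calls were lost without the filter on low counts, and that of Pcdhga11 also without the 2 libraries whose sex-linked genes went against the label and with only the 2 groups compared in the fit.

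**Figure D4:**
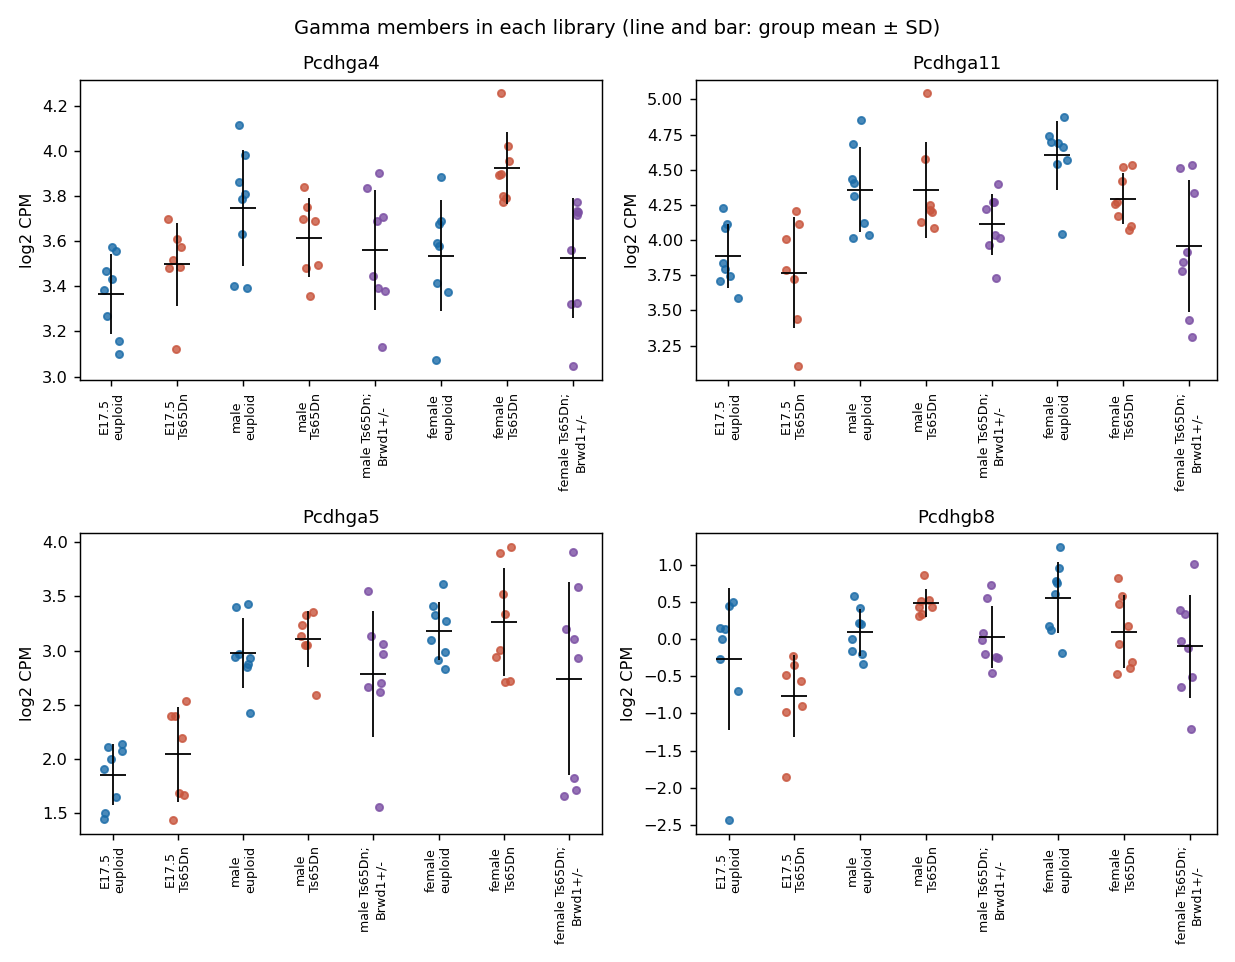
Level (log2 CPM, vertical axis, a separate scale for each gene) of 4 gamma genes in each library by group; points are libraries (blue euploid, red Ts65Dn, purple Ts65Dn;Brwd1+/-), the line and bar are the group mean ± SD. Female Ts65Dn libraries of Pcdhga4 lie between 3.77 and 4.26, and 4 adult Ts65Dn;Brwd1+/- libraries of Pcdhga5 lie at or below 1.82 while all other adult libraries lie at 2.42 or above.

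No member was called in female Ts65Dn;Brwd1+/- against Ts65Dn (0% of all genes were called, 6 members had an unadjusted p under 0.05, and DESeq2 called 0). The medians of the members in the 3 female comparisons were -0.03 for Ts65Dn against euploid, -0.15 for Ts65Dn;Brwd1+/- against Ts65Dn and -0.14 for Ts65Dn;Brwd1+/- against euploid. In the last one 44 of 57 members were below 0, made up of 21 of 22 beta, 18 of 22 gamma and 5 of 13 alpha genes. This count was taken with euploid B125 and Ts65Dn;Brwd1+/- B176 in their groups, and no count of all genes is set beside it. In the same comparison 6 of 7 neural progenitor markers were below 0 (median -0.47, 1 called) and 7 of 7 microglia markers above 0 (median 0.10, 0 called). Long relative to short transcripts stood at -0.93, 0.11 and 0.21 in euploid and -0.91, -0.0038 and 0.13 in Ts65Dn;Brwd1+/- females. The summed astrocyte level was 11.95, 12.34 and 12.50 against 11.83, 12.21 and 12.46. In both quantities the lowest libraries were B125 and B176. The endothelial level was 6.41, 6.94 and 7.17 against 6.55, 6.89 and 7.36, and all these ranges overlapped. The subfield markers Zbtb20, Dsp, Wfs1 and Prox1 stood at -0.75, -0.50, -0.43 and -0.43, and Grik4 and Fibcd1 at 0.02 and 0.04, with 0 called. In Ts65Dn against euploid Wfs1 was called as lower (-0.66 ± 0.17, adjusted p = 0.044). There Dsp, Zbtb20 and Prox1 stood at -0.57, -0.53 and -0.19, and Grik4 and Fibcd1 at 0.13 and 0.05. The part of these markers and of transcript length in the members' values was not tested. The counts in females turned on single libraries and on the factors. Without euploid B125, 10 members were called in Ts65Dn;Brwd1+/- against euploid, all lower (Pcdhb4, Pcdhb15, Pcdhb16, Pcdhb17, Pcdhga1, Pcdhga3, Pcdhga8, Pcdhga11, Pcdhgb1 and Pcdhgc3), where 8% of all genes were called, and without both B125 and B176, an alternative chosen after seeing the data, 4 were (Pcdhb16, Pcdhga11, Pcdhgb1 and Pcdhgc3), where 4.44% of all genes were. In Ts65Dn against euploid the latter alternative gave 7 calls, Pcdhga4 higher and Pcdhb10, Pcdhb11, Pcdhb15, Pcdhga10, Pcdhga11 and Pcdhgb1 lower, where 17.4% of all genes were called. With 3 factors of unwanted variation the 3 female counts were 7, 3 and 14, where 23.5%, 2.48% and 18.5% of all genes were called, and the 14 were all lower.

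Whether the sexes differ in these effects was tested by an interaction term over all adult libraries. No member was called for Ts65Dn against euploid (0% of all genes, 3 members at an unadjusted p under 0.05, 0 with DESeq2) or for Ts65Dn;Brwd1+/- against Ts65Dn (0% of all genes, 2 members, 0 with DESeq2). Pcdhga4 had the smallest p of the members in the first, with a difference of 0.52 ± 0.16 between the female and the male log2 fold change (adjusted p = 0.26), and -0.34 ± 0.16 in the second. With edgeR, all libraries and no factors, the C-type genes did not pass the threshold in any genotype comparison, with log2 fold changes between -0.18 and 0.32. In female Ts65Dn;Brwd1+/- against euploid Pcdhgc3 was called as lower without B125 (-0.23 ± 0.07, adjusted p = 0.060) and without B125 and B176 (-0.17 ± 0.05, adjusted p = 0.053). With factors of unwanted variation, calls were also made of Pcdhgc3 in both sexes, of Pcdhac2 at E17.5 and in females, and of Pcdhgc4 at E17.5 and, with DESeq2, in male Ts65Dn. None of the chromatin and looping factors or delta protocadherins was called in any of the 7 genotype comparisons, where 0 to 4 of 22 and 0 to 4 of 12 had an unadjusted p under 0.05. Of the binding partners, only Axin1 in female Ts65Dn against euploid was called (-0.15 ± 0.04, adjusted p = 0.062). Of 23 neighbouring genes tested, 3 were called in that comparison (Apbb3, Rnf14 and Ndfip1, at -0.21, 0.22 and 0.19) and 0 in the other 6, where 0 to 4 had an unadjusted p under 0.05.

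Variation between animals of a group was compared with that of other genes. The ratio of a gene's own dispersion to the trend at its level had a median of 0.70 over the 57 members, against 0.55 over all 17427 genes tested in the adult, and 43 of 57 members were above the latter. Among genes in the same range of level the medians were 0.66 for 46 members and 0.45 for all 4081 genes. All 22 gamma genes were above the median of all genes, against 12 of 22 beta and 9 of 13 alpha genes. The highest ratios were those of Pcdhga5 (2.28), Pcdhb1 (2.03), Pcdhga9 (2.01), Pcdhac2 (1.64) and Pcdhga11 (1.52). For comparison, the median over 12 delta protocadherins was 1.61. Without B125 and B176, an alternative chosen after seeing the data, the medians were 0.63 over the members and 0.51 over all 17361 genes tested, and 38 of 57 members were above the latter (20 of 22 gamma, 11 of 22 beta and 7 of 13 alpha genes). Pcdhac2 then had a ratio of 0.71, so that its place rested on these 2 libraries, whereas Pcdhga5 (2.34), Pcdhga9 (2.03), Pcdhb1 (1.96) and Pcdhga11 (1.55) again had the highest ratios of the members. The within-group SD over all 47 libraries of Pcdhga5 was 0.52 on the log2 scale and that of Pcdhgc3, the steadiest member, was 0.15.

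**Figure D5:**
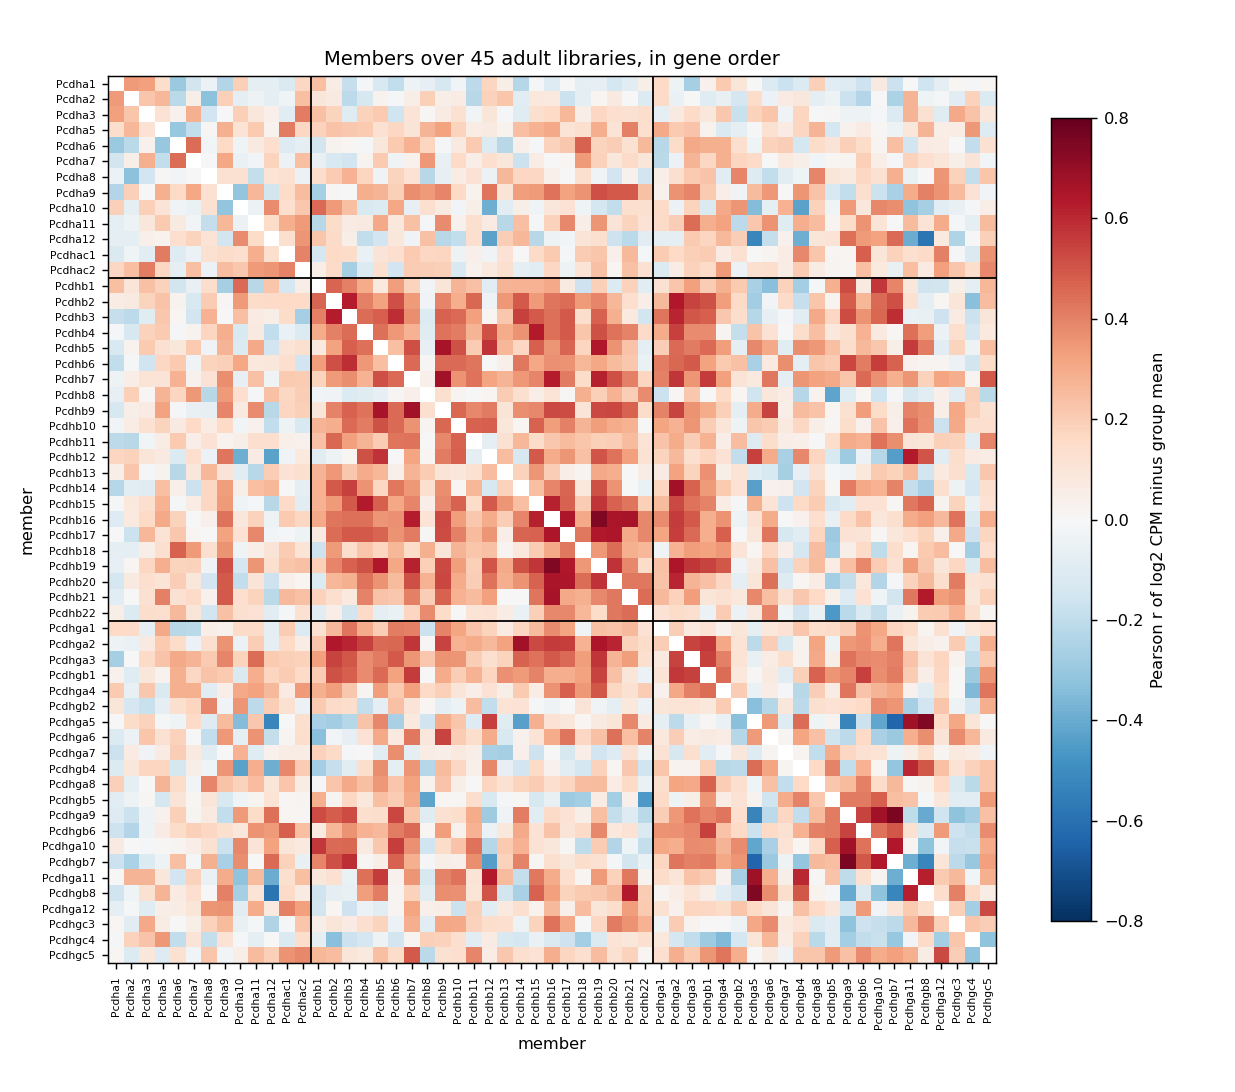
Pearson r between members (both axes, in gene order, black lines between the clusters) of log2 CPM minus the group mean, over the 45 adult libraries other than B125 and B176; red is positive and blue negative. Beta genes form a red block (median 0.32 within the cluster), pairs of alpha genes are near white (0.11), and Pcdhga5, Pcdhga11 and Pcdhgb8 are red with each other and blue with Pcdhga9 and Pcdhgb7 (r from -0.63 to -0.20).

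How members varied together across animals was described by correlations of log2 CPM after taking away the group mean. All points share the library's depth and scaling, and no p is given. Over 47 adult libraries the median r over the 1596 pairs of members was 0.30, and without B125 and B176 it was 0.14. Within the beta cluster it was 0.32 without these 2 libraries, within the gamma cluster 0.13 and within the alpha cluster 0.11. The closest pairs over the 45 libraries were Pcdhga9 with Pcdhgb7 (r = 0.75), Pcdhga5 with Pcdhgb8 (r = 0.74), Pcdhb16 with Pcdhb19 (r = 0.74) and Pcdhga5 with Pcdhga11 (r = 0.68). For 13 of the 57 members the gene with the highest r among all genes tested was itself a member, although members are 0.327% of these genes. No C-type gene was among the 13. The best partner of Pcdhgc5 was Chrm1, a muscarinic receptor gene (r = 0.83), and that of Pcdhac2 was Gpr158 (r = 0.76).

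For a few gamma and beta genes, many of the best partners lay on the same chromosome, inside and outside the clusters. Of the 10 genes with the highest r, 9 were on chromosome 18 for each of Pcdhga5, Pcdhga11 and Pcdhgb8, 6 for Pcdhb12 and 5 for Pcdhga2 and Pcdhgb7. Chromosome 18 holds 2.66% of all genes tested, and 22 members had none of its genes among their 10. The best partner of Pcdhga5 was Gnpda1, a glucosamine-6-phosphate deaminase gene 0.63 Mb away (r = 0.81 over 45 adults), and Mcc at 6.73 Mb had 0.68. In the 15 embryos Pcdhga5 had r = 0.86 with Gnpda1, 0.71 with Pcdhga11 and 0.68 with Pcdhgb8, but 0.18 with Mcc and -0.31 with Pcdhb12.

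Pcdhga5 also fell into separate levels across the adults, a pattern noticed after its values had been seen. The 4 lowest libraries were male Ts65Dn;Brwd1+/- B138 (1.56), female Ts65Dn;Brwd1+/- B167 (1.66), B113 (1.72) and B176 (1.82). The other 43 adult libraries lay between 2.42 and 3.95, so that a gap of 0.60 separated the 4 from the rest. The 4 are defined by this gap of Pcdhga5 itself, and the gap is a description. The only member with a wider gap was Pcdhb1, at 0.80 with 3 libraries below it, on few reads. Pcdhga11 was at 3.31 to 3.78 in the 4 and at 3.85 to 5.04 in the others. All 4 carry the Ts65Dn;Brwd1+/- label and 12 of the 16 libraries with that label do not show the low level. B138 is also 1 of the 4 libraries without the additional dosage, and B176 is 1 of the 2 that stood apart in most members. The part of genotype in this level was not tested beyond the comparisons above, in which Pcdhga5 was not called.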

How the data were processed

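RNA-seq was made from 1 library per animal with the TruSeq RNA V2 kit after polyA selection, and reads of 2 flow cells were joined. The authors deposited raw read counts per gene, made with HISAT2 and featureCounts. Per the submitters' processing notes the versions were HISAT2 2.1.0 and featureCounts 2.0.1, the builds were mm10 and mm9, and the differential testing was RUVr with DESeq2 2.11.40.6. The tables list Entrez gene identifiers, and all 27179 genes were used.

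Counts were tested in R 4.3.3 with edgeR 4.0.16 (robust quasi-likelihood test, TMM scaling, filterByExpr with a minimum count of 10), with p-values adjusted by Benjamini-Hochberg over all genes tested and called under 0.1. Between the stages an absolute log2 fold change of at least 1 was also asked for. The adult genotypes of a sex shared 1 fit. Log2 CPM used a prior count of 0.5 and TMM over all 62 libraries. Levels per kilobase used the GENCODE M21 exon length shared with no other member. The transcripts of 57 members were matched by RefSeq accession and Pcdhgb8 by symbol. Since a group's libraries come from separate animals of unknown litters, p-values measure the spread between these libraries. Alternatives were DESeq2 1.42.0, upper-quartile scaling, no filter, 1 and 3 RUVr factors, blocks and left-out libraries. The tests were checked on simulated counts in the adult male and stage designs, with changes of 1 on the log2 scale in either direction. Smaller changes and outlying libraries were not simulated.

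The members and gene lists were chosen with earlier results of these data known. Genes named were the C-type genes, members called in a genotype comparison, up to 2 rises and 2 falls per cluster between the stages, the highest and lowest level per cluster and stage, the 2 highest dispersion ratios per cluster, and the smallest p per cluster where no member was called. Others, such as Pcdhga5 in its low libraries, were named after their values were seen. Sequences of the members are not shown here.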

Additional observations from a re-analysis of the deposited data

Results flagged for a closer look

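The values of 23 members were examined in each of the 8 groups for a library far from the others of its group, and 26 stood apart. Some of the 23 had been named for a high dispersion between libraries, and a library could be flagged in several members. No chance rate is therefore set beside the 26. Values are log2 CPM. Of the 26, 7 were in female euploid B125, all the lowest of their group, with Pcdha12 at 1.48, Pcdhac1 at 0.63, Pcdhac2 at 4.15, Pcdhga11 at 4.05, Pcdhgb1 at 1.81, Pcdhgc3 at 5.92 and Pcdhgc5 at 6.24. Another 6 were in female Ts65Dn;Brwd1+/- B176, again all the lowest, with Pcdha12 at 1.31, Pcdhac2 at 4.20, Pcdhb16 at 1.95, Pcdhb2 at -0.46, Pcdhgc3 at 5.87 and Pcdhgc5 at 6.35.

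The remaining 13 were spread over other libraries. At E17.5, Pcdhac2 was the lowest at 3.66 in euploid 4 and at 3.71 in Ts65Dn 6, Pcdhga4 was the lowest at 3.12 in Ts65Dn 6 and Pcdhgb8 was the lowest at -2.43 in euploid 4. In adult males, Pcdhac1 was low at 1.83 in Ts65Dn;Brwd1+/- B26, Pcdhac2 at 5.23 in Ts65Dn B88, Pcdhb16 at 2.69 in euploid B95, and Pcdhga5 at 2.59 in Ts65Dn B40 and at 1.56 in Ts65Dn;Brwd1+/- B138. Pcdhgb1 was high at 3.41 in male euploid B100 and Pcdhgb8 at 0.86 in male Ts65Dn B145. In adult females, Pcdhb16 was low at 2.71 in Ts65Dn T141 and Pcdhb9 was high at 4.15 in Ts65Dn;Brwd1+/- B136.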

How the results depend on the processing

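Of 607 single-gene fold changes recomputed, 525 kept their direction and side of the threshold, 24 lost and 35 gained a call, and 23 changed sign. Counts of members called moved in 31 of 96 cases, and the cause was not tested. With 1 RUVr factor in edgeR the counts were 2 at E17.5, 5, 1 and 9 in females (Ts65Dn against euploid, Ts65Dn;Brwd1+/- against Ts65Dn and against euploid) and 1 for the Ts65Dn interaction. Of all genes, 9.16% were called at E17.5, 14%, 0.245% and 9.28% in females and 2.67% for the interaction. With 3 factors in edgeR the counts of members were 8 at E17.5, then 1, 0 and 3 in males. They were 7, 3 and 14 in females and 3 for that interaction. The shares of all genes were 22.1%, then 4.63%, 3.47% and 4.97%, then 23.5%, 2.48% and 18.5%, then 13.2%. With 3 factors in DESeq2 the counts were 11, then 4, 1 and 6, then 9, 6 and 14, then 5. The shares of all genes were there 24.8%, then 7.1%, 5.89% and 7.85%, then 25.5%, 4.9% and 20.9%, then 14.8%. DESeq2 with its own size factors called 1 at E17.5 (3.58% of all genes). Without the low-count filter both female counts against euploid were 0 (1.82% of all genes for Ts65Dn and 0.401% for Ts65Dn;Brwd1+/-). Without the 4 libraries lacking the additional dosage, 2 and 4 were called in males against euploid (1.16% and 1.58% of all genes) and 4 in female Ts65Dn;Brwd1+/- against euploid (1.2%). The latter was 0 without the 2 libraries against the labelled sex, 0 with only 2 groups in the fit, 10 without B125 and 4 without B125 and B176, and Ts65Dn against euploid was then 7. Of all genes, 0.512%, 0.398%, 8%, 4.44% and 17.4% were called in these fits, in that order. Leaving out 1 library gave 0 to 1 and 0 to 10 members, with 4 without B136. These fits called 1.66% to 9.32% and 0.476% to 8% of all genes, with 1.2% without B136. Leave-one-out fits and the joint removal of B125 and B176 were chosen after seeing the data. Between the stages, upper-quartile scaling gave 5 higher and 4 lower in place of 7 and 2. As a share of the cluster sum, 10 of 24 levels moved, among them Pcdhga5 (0.69).

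Replicate numbers did not pair the embryos. Over 7 same-numbered pairs the correlation of deviations ran from -0.131 to 0.227, 3 were over 0.1, and 1 euploid embryo correlated best with its own number. With the replicate block 0 members were called (2 at an unadjusted p under 0.05), and Pcdhgc3 changed sign, to 0.0036. The adult labels carry animal numbers only.

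The other sign changes were of small values. At E17.5 they were Pcdhgc3 at 0.13 (embryos with one of the numbers in the titles) and Pcdhgc5 at -0.18 (those with the other) and -0.00017 (1 factor). In male Ts65Dn they were Pcdhac2 at 0.012 (without the 2 sex-mismatched libraries) and Pcdhgc5 at -0.0018 (upper quartile), -0.0019 (1 factor), -0.0015 and -0.0037 (3 factors, edgeR and DESeq2) and -0.038 (without the 4), and in male Ts65Dn;Brwd1+/- against euploid Pcdhac1 at 0.0018 (3 factors). In female Ts65Dn, Pcdhac1 was at 0.035 (1 factor), 0.030 and 0.037 (3 factors, edgeR and DESeq2), and 0.013 without the 2 sex-mismatched libraries, where Pcdhgc3 was at 0.016 and Pcdhgc5 at 0.0040. Pcdhgc3 was at 0.0053 with 3 factors in DESeq2, and Pcdhgc4 at -0.050 without B125 (-0.050 also without B176). Pcdhac1 was at -0.051 in female Ts65Dn;Brwd1+/- without B125. Between the stages Pcdha12 was at 0.037 (males only) and 0.022 (without B85 and B125). Depth limited Pcdhb1, Pcdha4 and Pcdha8, with medians of at most 30 reads in every group.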
